A study of Mus musculus with 6 samples.

Results

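The platelet-derived growth factor (PDGF) family was followed in murine glial cells that carried either an empty vector or histone H3.3 with the K27M mutation. The mouse family comprises 4 ligand genes (*Pdgfa*, *Pdgfb*, *Pdgfc* and *Pdgfd*), 2 receptor tyrosine kinase genes (*Pdgfra* and *Pdgfrb*) and the receptor-like gene *Pdgfrl*. These 7 genes were chosen by name, and their 8 probes were found through the RefSeq accession of each probe, among 22911 genes so named on the array. *Pdgfa* had 2 probes and the other members had 1 each.

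Both groups were OS3 cells, a glial line from newborn C3H/HeN mice that had been immortalized with SV40, labeled as male brain cells of strain C3H. WT cells carried the empty vector, and IG27 cells had received a pcDNA3.1 plasmid for H3.3K27M, which replaces lysine with methionine at residue 27 of this histone. Clones were established by drug selection, and the sources used here do not say whether the samples of a group came from 1 clone or several. Differences between clones and the effect of the mutation cannot be told apart in these arrays. All cells were grown for 2 days in MEM-α with fetal bovine serum and insulin, and 3 samples per group were each hybridized to 1 single-color Agilent array of 1 slide. p-values measure the spread between these samples, which may be technical.

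PDGF ligands are secreted as disulfide-bonded dimers. PDGF-AA, PDGF-BB and PDGF-CC bind the α-receptor, PDGF-BB and PDGF-DD bind the β-receptor, and the C and D chains must first be cut by proteases to become active. Ligand binding pairs the receptors, which then signal through Ras and MAP kinases, phosphatidylinositol 3-kinase and phospholipase C. In the developing brain the α-receptor marks oligodendrocyte progenitors and the β-receptor marks pericytes, and *PDGFRA* is amplified or mutated in a share of human pontine gliomas with H3K27M.

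Levels are given as normalized log2 intensity, that is, log2 of the processed signal minus the 75th percentile of the array, so that 0 is the 75th percentile. A difference is IG27 minus WT on this scale. Probes differ in brightness for the same amount of RNA, so levels were compared between groups for 1 probe and never between probes. Between 33294 and 34633 of 56605 probes (58.8% to 61.2%) passed the flag for being well above background, on the 5 arrays that have the full scanner output. None of these 5 arrays held a saturated spot. The scanner output of IG27 replicate 2 holds 285 of 62976 spots, so its values came from the deposited value table and its probes carry no background flag. Correlations between arrays were taken across the tested genes with a value on every array, with 1 probe per gene. They ran from 0.994 to 0.996 within WT, were 0.997 within IG27, and ran from 0.902 to 0.905 between the groups. *H3f3a*, the gene of the transfected histone, measured 6.84 ± 0.13 in WT and 6.58 ± 0.05 in IG27 (SD, n = 3 each; difference -0.26, adjusted p = 0.0237, limma). Whether its probe detects the transcript of the plasmid was not determined, so it does not check the labels.

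Many genes differed between the lines. Of 14898 genes tested, 10501 (70.5%) passed an adjusted p of 0.05 (limma, Benjamini-Hochberg), 30.5% as higher and 40.0% as lower in IG27 cells. The values of the groups did not overlap for 75.7% of the genes, 33.4% with IG27 above WT and 42.4% with IG27 below it. A called difference of at least 2-fold was found for 11.5% of genes as higher and for 11.7% as lower. Counts for PDGF genes are read against these shares, and the median difference over all genes was -0.07.

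RefSeq promoter windows (GRCm38.p6) were at hand for 4 of the 7 genes, namely *Pdgfa*, *Pdgfc*, *Pdgfd* and *Pdgfra*. They are shown so that the start of *Pdgfa*, whose level differed little between the lines, can be read beside those of *Pdgfra* and *Pdgfc*, which were higher in IG27 cells, and of *Pdgfd*, which was not above background. Capitals mark CpG dinucleotides, the sites of DNA methylation. Each run is the 250 bases before a transcript start, 5′ to 3′ on the strand of the gene, at chr5:75152001-75152250 (plus strand) for *Pdgfra*, chr3:81036166-81036415 (plus strand) for *Pdgfc*, chr5:138994945-138995194 (minus strand) for *Pdgfa* and chr9:6168236-6168485 (plus strand) for *Pdgfd*.
Pdgfra: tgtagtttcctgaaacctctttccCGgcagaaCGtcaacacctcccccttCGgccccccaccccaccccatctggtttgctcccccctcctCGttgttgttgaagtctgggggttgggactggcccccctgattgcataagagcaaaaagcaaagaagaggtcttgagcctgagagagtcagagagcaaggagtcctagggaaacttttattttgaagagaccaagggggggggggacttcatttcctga
Pdgfc: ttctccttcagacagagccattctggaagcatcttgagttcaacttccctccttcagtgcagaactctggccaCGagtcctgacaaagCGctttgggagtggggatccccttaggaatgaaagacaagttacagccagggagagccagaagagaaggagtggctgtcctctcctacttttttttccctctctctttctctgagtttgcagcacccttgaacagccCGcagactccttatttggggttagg
Pdgfa: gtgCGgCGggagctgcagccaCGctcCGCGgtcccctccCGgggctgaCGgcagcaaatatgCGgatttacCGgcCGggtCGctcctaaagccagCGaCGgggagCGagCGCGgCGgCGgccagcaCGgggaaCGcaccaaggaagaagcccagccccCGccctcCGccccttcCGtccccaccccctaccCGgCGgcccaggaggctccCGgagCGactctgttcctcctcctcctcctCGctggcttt
Pdgfd: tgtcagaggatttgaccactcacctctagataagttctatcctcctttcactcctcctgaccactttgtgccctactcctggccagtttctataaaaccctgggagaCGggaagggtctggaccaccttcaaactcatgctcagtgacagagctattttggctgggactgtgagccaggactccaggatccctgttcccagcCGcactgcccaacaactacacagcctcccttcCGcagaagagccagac
The *Pdgfra* window held 4 CpG dinucleotides (54.4% G and C), the *Pdgfc* window 3 (50.8%) and the *Pdgfd* window 3 (53.6%), whereas the *Pdgfa* window held 28 (72.4%) and the window before another *Pdgfa* start, at chr5:138994282-138994531, held 19 (66.4%). Over all 32851 windows the median was 6 CpG, with quartiles of 2 and 16. The *Pdgfra* window lies within the gene, before a start that follows an earlier one. The letters GGGCGG (the GC box, searched on both strands, and present in 32.7% of all windows) occurred at 2 places in the printed *Pdgfa* window and at 1 in the other, and TATAAA (present in 12.4% of windows) occurred at 1 place in the *Pdgfd* window, 160 bases before the start. The GC box, the TATA box letters TATAAA, the CCAAT box, the E box CACGTG, the AP-1 motif TGACTCA and the Egr motif GCGGGGGCG (the last 4 present in 33.9%, 6.02%, 4.46% and 2.57% of all windows, searched on both strands) were not found in the *Pdgfra* and *Pdgfc* windows. No chromatin or binding was measured on these arrays.

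Among the ligands, *Pdgfb* and *Pdgfc* rose in IG27 cells, *Pdgfa* did not pass the test on its brighter probe, and *Pdgfd* was not well above background in either line. Among the receptors, *Pdgfra* rose 5.14-fold and *Pdgfrb* fell, and *Pdgfrl* rose from near the background. In all, 6 of the 7 genes passed the filter on dim probes, and 5 of 6 were called (70.5% of all genes), 4 as higher (30.5%) and 1 as lower (40.0%). The same 5 had groups that did not overlap (75.7% of all genes), 4 with IG27 above WT (33.4%) and 1 with IG27 below it (42.4%). *Pdgfc* and *Pdgfrl* passed the filter only through the IG27 arrays, where they were high, so nothing is read from these counts. With a filter on both groups 4 members were left, *Pdgfb* and *Pdgfra* as higher, *Pdgfrb* as lower and *Pdgfa* not called, and 9580 of 13544 genes were called.

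**Figure D1:**
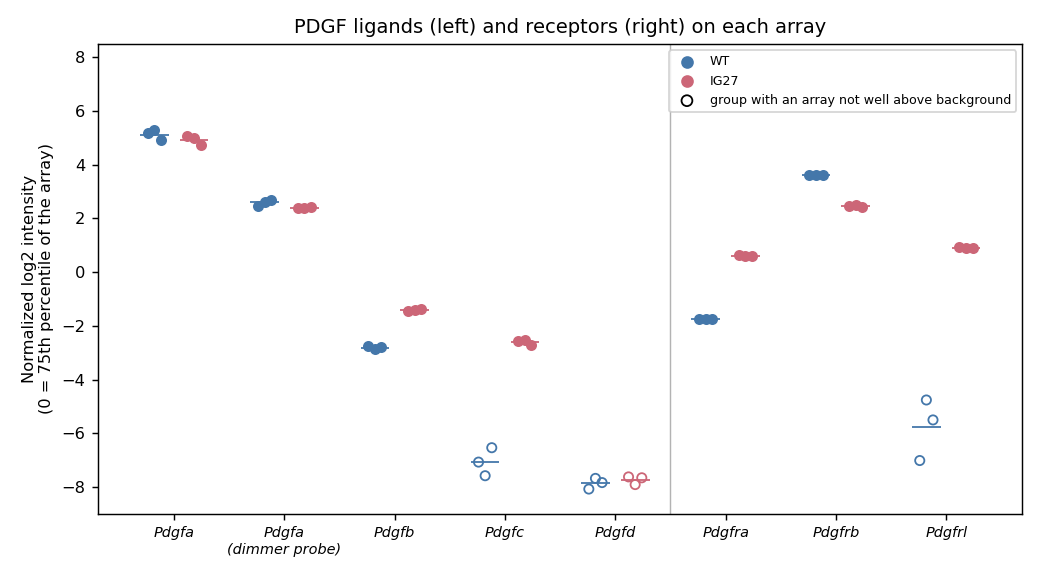
Normalized log2 intensity (y axis, 0 is the 75th percentile of the array) of each probe of the PDGF family on the 3 WT and 3 IG27 arrays, with 1 point per array and a line at the group mean. Open points mark a probe not well above background on at least 1 array of the group with complete scanner output. The groups stand apart for *Pdgfb*, *Pdgfc*, *Pdgfra*, *Pdgfrb* and *Pdgfrl*, and overlap for the brighter *Pdgfa* probe and for *Pdgfd*.

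*Pdgfa* encodes the A chain, a mitogen for oligodendrocyte progenitors that acts through the α-receptor. Its brighter probe measured 5.17, 5.30 and 4.92 on the WT arrays and 5.08, 4.98 and 4.75 on the IG27 arrays. The groups overlapped, with the lowest value in IG27 replicate 3. The difference was -0.19 (SE 0.13, 95% interval -0.50 to 0.12, adjusted p = 0.227, limma), and the interval includes 0.

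The dimmer *Pdgfa* probe gave 2.47, 2.63 and 2.70 in WT and 2.37, 2.39 and 2.44 in IG27. Here the groups did not overlap, all IG27 values lying below all WT values. In the fit over all probes its difference was -0.20 (SE 0.07, 95% interval -0.38 to -0.02, adjusted p = 0.0457, limma), nearly the value of the brighter probe with a smaller error. The mean of the 2 probes also passed the test, with -0.20 and an adjusted p of 0.0347. The call for *Pdgfa* thus rested on the choice of probe, and its size did not.

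*Pdgfb* encodes the B chain, which binds both receptors and which recruits pericytes when released from endothelium. It measured -2.76, -2.87 and -2.80 in WT and -1.46, -1.41 and -1.36 in IG27. The 3 IG27 arrays were all higher, and the spread within either line was small beside the gap between them. The difference was 1.40 (SE 0.05, adjusted p = 2.95e-06), or 2.64-fold.

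*Pdgfc* encodes the C chain, a latent ligand of the α-receptor that tissue plasminogen activator can cut. It was well above background on 0 of the 3 WT arrays, where it measured -7.08, -7.58 and -6.54. On the IG27 arrays it measured -2.57, -2.53 and -2.72 and was well above background on both arrays that carry the flag. Because the WT values lay in the background, the change is given as at least 8.96-fold higher in IG27 cells, where this bound sets the IG27 mean against the dimmest signal that passed as well above background on each WT array. The fitted difference was 4.46 (SE 0.25, adjusted p = 1.42e-05). These values hold for the processed signal: with normexp correction, run on median signals of 5 arrays with an offset of 50, the difference was 1.63, which is below the bound. The same limit applies to each bound given as at least a number of folds.

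*Pdgfd* encodes the D chain, a latent ligand of the β-receptor. Its values were -8.08, -7.68 and -7.84 in WT and -7.63, -7.91 and -7.66 in IG27. It was not well above background on any of the 5 arrays that carry the flag, the groups overlapped, and no fold is given.

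*Pdgfra*, the gene of the α-receptor, measured -1.73, -1.76 and -1.76 in WT and 0.62, 0.60 and 0.61 in IG27. The processed signals behind these values were 322, 308 and 292 in WT and 1687, 1720 and 1526 in IG27, against a local background of 28 to 36. The replicates of each line lay within a few hundredths of each other, and the lines were far apart. The difference was 2.36 (SE 0.04, 95% interval 2.26 to 2.46, adjusted p = 1.60e-07), or 5.14-fold.

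*Pdgfrb*, the gene of the β-receptor, went the other way. It measured 3.61, 3.62 and 3.62 in WT and 2.45, 2.50 and 2.43 in IG27. All 3 IG27 arrays lay below all WT arrays, and the gene was well above background in both lines. The difference was -1.16 (SE 0.04, 95% interval -1.26 to -1.05, adjusted p = 2.79e-06).

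*Pdgfrl* encodes a secreted protein that resembles the ligand-binding part of the receptors and lacks a kinase. In WT cells it measured -7.02, -4.76 and -5.51 and was well above background on 2 of 3 arrays, with WT replicate 1 the dimmest. In IG27 cells it measured 0.93, 0.90 and 0.88, so the spread lay in the WT arrays and the IG27 arrays were nearly alike. The fitted difference was 6.66 (SE 0.54, adjusted p = 7.03e-05). It was 6.04 without WT replicate 1, 5.66 with slide rows as blocks and 4.52 with normexp correction, so its direction held and its size did not.

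**Figure D2:**
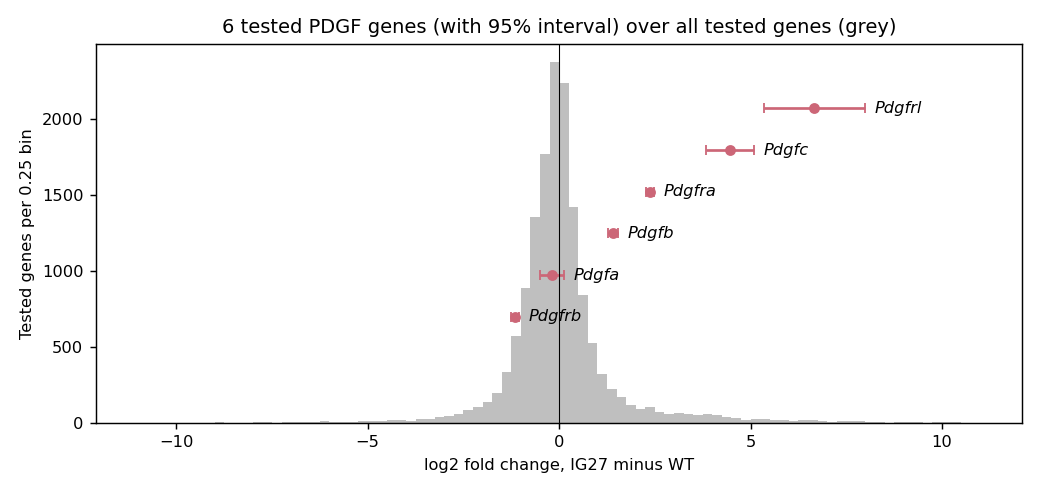
Histogram of the log2 difference, IG27 minus WT, of all 14898 tested genes (y axis, number of genes per bin), with the 6 PDGF genes that were tested as points with 95% intervals, whose height carries no value. *Pdgfrl*, *Pdgfc*, *Pdgfra* and *Pdgfb* lie in the upper tail, *Pdgfrb* in the lower part and *Pdgfa* near the middle; the values of *Pdgfc* and *Pdgfrl* start from the background in WT cells.

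Placed among all tested genes by their difference, *Pdgfra* stood at percentile 94.7, *Pdgfb* at 91.3, *Pdgfa* at 42.1 and *Pdgfrb* at 9.08. *Pdgfc* and *Pdgfrl* are given no rank because their WT values lay in or near the background. The α-receptor gene and *Pdgfb*, whose product binds both receptors, were thus called as higher, while the β-receptor gene was called as lower. *Pdgfa*, a ligand gene of the α-receptor, was not called on its brighter probe. Nothing is read from the call of *Pdgfc*, another such gene, which passed the filter only through the IG27 arrays.

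The genes whose values followed each member most closely over the 6 arrays were named by Pearson's r, as a description. They were *Tmem141* and *Gsto1* for *Pdgfra*, *Alkbh3* and *Ecd* for *Pdgfrb*, *Zan* and *Gbx1* for *Pdgfrl*, *Pde1a* and *Gm6524* for *Pdgfb*, and *Mycbp* and *Aplp1* for *Pdgfc*, with r from 0.999119 to 0.999985. For *Pdgfa* they were *Map3k13* (0.997) and *Htr4* (0.988). The 6 arrays form 2 groups, so any gene with a steady difference between the lines scores high: 1493 of 14884 genes (10.0%) had r over 0.99 with *Pdgfra* and 1907 (12.8%) with *Pdgfrb*.

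Proteins that activate or bind the ligands were listed next. Of 15 such genes, 10 could be tested, 2 were higher (30.5% of all genes) and 4 lower (40.0%) in IG27 cells, with a median difference of -0.04. *Plau*, *St14*, *Pcsk5*, *Thbs2* and *A2m* were not well above background. *Plat*, which encodes the tissue plasminogen activator that can cut the C chain, fell from 3.71, 3.71 and 3.45 to 2.16, 2.10 and 2.15 (difference -1.49, adjusted p = 1.28e-05). *Lrp1*, an endocytic co-receptor of the β-receptor, fell by 0.96 (adjusted p = 1.58e-05). *Furin*, a proprotein convertase that processes the A and B chains, rose from 3.00, 3.11 and 3.21 to 3.56, 3.58 and 3.69 (difference 0.51, adjusted p = 9.27e-04). *Nrp1*, a neuropilin co-receptor, rose by 0.33 (adjusted p = 0.0262).

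Of 25 tested adaptors and enzymes that dock on the activated receptors, 18 were called (70.5% of all genes), 5 as higher (30.5%) and 13 as lower (40.0%), with a median difference of -0.15. The largest rises were those of *Pik3ca*, the catalytic p110α subunit of phosphatidylinositol 3-kinase (1.51, adjusted p = 1.82e-05), and of *Fyn*, a Src-family kinase (1.40, adjusted p = 5.90e-06). The largest falls were those of *Yes1*, another Src-family kinase (-1.46, adjusted p = 2.87e-05), and of the adaptor *Nck1* (-1.10, adjusted p = 2.61e-05). The Src-family kinases thus did not move as 1 group. *Grb10* and *Stat6* were not well above background.

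Of 16 Ras, MAP kinase and Akt pathway genes, 12 were called (70.5% of all genes), 2 as higher (30.5%) and 10 as lower (40.0%), with a median difference of -0.40. A gene among the higher ones passed the filter only through the IG27 arrays. With a filter on both groups 15 were tested and 11 called, beside 9580 of 13544 genes in all. *Mapk3*, which encodes the MAP kinase ERK1, measured 3.26, 3.07 and 3.13 in WT and 4.15, 4.13 and 4.23 in IG27, a rise of 1.02 (adjusted p = 2.46e-05). *Prkca*, a protein kinase C, fell by 1.33 (adjusted p = 2.53e-06), and *Araf*, a Raf kinase, fell by 0.91 (adjusted p = 8.96e-06). The activity of these kinases is set by phosphorylation, which arrays do not measure.

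**Figure D3:**
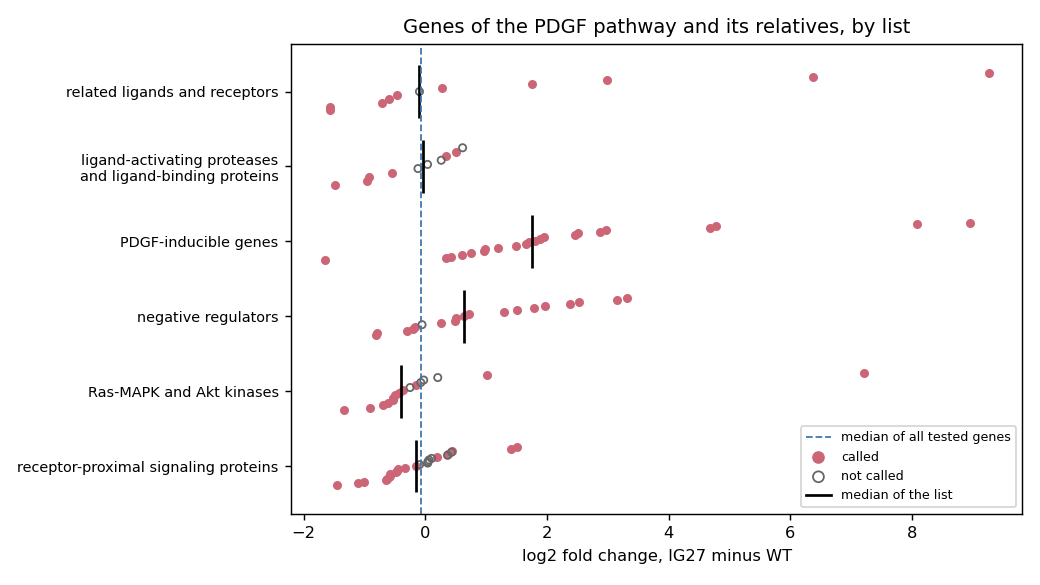
Log2 difference, IG27 minus WT, of every tested gene of each list (1 point per gene, filled where called and open where not), with a bar at the median of the list and a line at the median of all genes (-0.07). The PDGF-inducible genes lie almost entirely above 0, with a median of 1.75, and the Ras-MAPK and Akt genes mostly below 0, with a median of -0.40.

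Immediate-early and other genes that PDGF is known to induce in cultured cells were higher almost throughout. Of 22 genes, all of which were tested, 21 were higher (30.5% of all genes) and 1 was lower (40.0%), and the median difference was 1.75. For all 22 the groups did not overlap (75.7% of all genes). *Egr3*, *Cxcl1* and *Ier3* passed the filter only through IG27 cells. With a filter on both groups 19 were tested and all 19 were called, beside 9580 of 13544 genes in all. Serum and other growth factors also induce many of them, and serum was present in both groups.

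The transcription factor gene *Egr3* measured -5.87, -5.76 and -6.31 in WT, in the background, and 1.99, 2.06 and 2.26 in IG27, at least 234-fold higher. *Cxcl1*, a chemokine gene known under the name KC from PDGF-treated fibroblasts, measured -7.77, -6.47 and -8.09 in WT and 1.61, 1.41 and 1.52 in IG27, at least 156-fold higher. *Fos* (1.70), *Egr1* (1.66) and *Myc* (1.19), which were well above background in both lines, rose less. The only fall was that of *Hbegf*, which encodes a ligand of the EGF receptor, from 4.08, 3.81 and 3.77 to 2.21, 2.12 and 2.35 (difference -1.66, adjusted p = 2.23e-05).

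Of 19 genes that restrain receptor signaling, 18 were called (70.5% of all genes), 13 as higher (30.5%) and 5 as lower (40.0%), with a median difference of 0.63. *Dusp4* and *Spry4*, both among the higher genes, passed the filter only through the IG27 arrays. With a filter on both groups 17 were tested and 16 called, beside 9580 of 13544 genes in all. *Dusp6*, a phosphatase gene that dampens ERK and is itself induced by ERK signaling, rose from 1.03, 1.21 and 1.21 to 4.34, 4.27 and 4.30 (difference 3.15, SE 0.07, adjusted p = 2.88e-07). *Dusp4*, a related phosphatase gene, measured -6.69, -5.10 and -6.27 in WT, well above background on 1 of 3 arrays, and -2.64, -2.74 and -2.71 in IG27 cells. The fitted difference was 3.32 (adjusted p = 3.84e-04, limma). With WT values in the background raised to the dimmest signal that passed on the array, the rise was at least 7.62-fold. *Cbl*, a ubiquitin ligase that marks activated receptors for degradation, fell from 0.80, 0.61 and 0.53 to -0.14, -0.14 and -0.16 (difference -0.79, adjusted p = 1.70e-04).

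**Figure D4:**
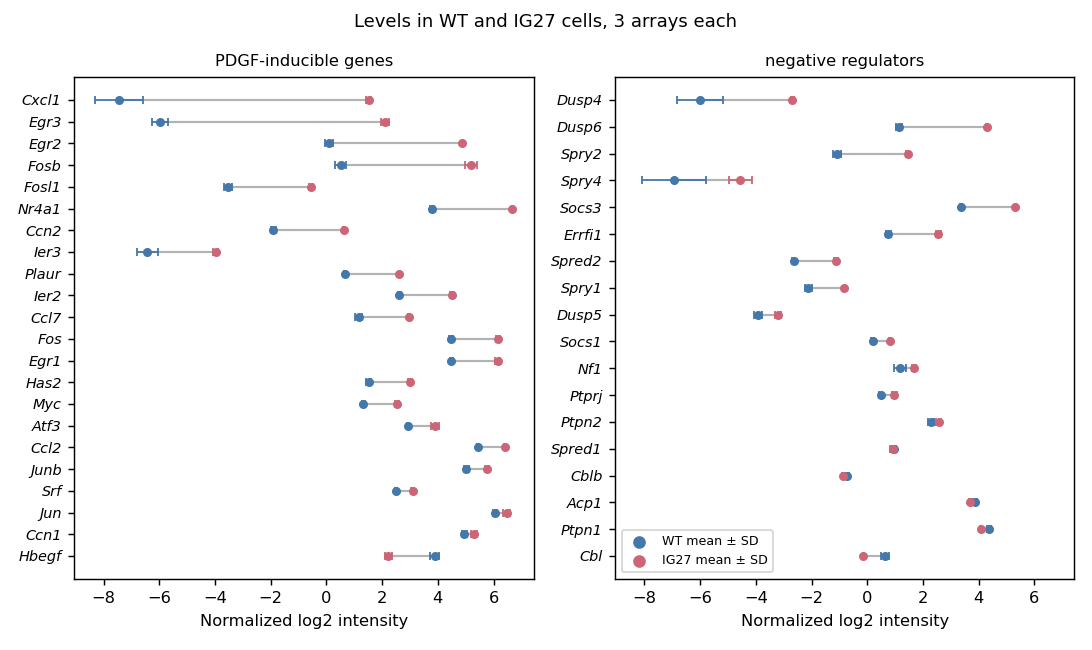
Normalized log2 intensity (x axis) of the 22 PDGF-inducible genes (left) and 18 of the 19 negative regulators (right) in WT and IG27 cells, as mean ± SD of 3 arrays, ordered by difference. In the left panel IG27 lies to the right of WT for every gene but *Hbegf*; in the right panel the order turns at the lower end, with *Cbl* lower in IG27 cells.

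Related receptors and their ligands were compared with the family. Of 11 tested genes, 10 were called (70.5% of all genes), 5 as higher (30.5%) and 5 as lower (40.0%), with a median difference of -0.10. *Kdr*, the gene of VEGF receptor 2, measured -7.97, -7.70 and -8.24 in WT and 1.30, 1.33 and 1.29 in IG27, at least 135-fold higher. *Flt1*, the gene of VEGF receptor 1, measured -6.54, -7.45 and -6.50 in WT and -0.41, -0.54 and -0.44 in IG27, at least 39.6-fold higher. Both were in the background on all WT arrays and passed the filter only through the IG27 arrays. With a filter on both groups 9 genes of this list were tested and 8 called, beside 9580 of 13544 genes in all.

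*Csf1r*, a related receptor gene that lies next to *Pdgfrb*, measured 0.93, 1.04 and 1.09 in WT and -0.21, -0.56 and -0.86 in IG27 (difference -1.57, adjusted p = 2.22e-04, limma). The other probe of *Csf1r* differed by only -0.13 and was not called. *Il34*, a ligand gene of the *Csf1r* receptor, fell by 1.56 (adjusted p = 2.77e-06, limma). *Kit*, *Flt3* and *Flt4* were not well above background in either line, nor was the ligand gene *Vegfc*.

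*Pdgfra* lies between *Gsx2* and *Kit* on mouse chromosome 5, and its human counterpart is often amplified in gliomas together with *KIT* and *KDR*. The 6 protein-coding genes on each side were therefore listed in RefSeq order. Of the 8 that were tested, 6 were called (70.5% of all genes), 5 as higher (30.5%) and 1 as lower (40.0%), with a median difference of 0.52. *Kdr*, among the higher genes, passed the filter only through the IG27 arrays. With a filter on both groups 7 were tested and 5 called, beside 9580 of 13544 genes in all. Before *Pdgfra*, the differences were -0.70 for *Rasl11b*, 0.81 for *Scfd2*, 0.80 for *Fip1l1* and 1.07 for *Chic2*, with *Lnx1* and *Gsx2* not well above background. The other probe of *Scfd2* gave 1.56 and that of *Fip1l1* gave 1.11.

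Beyond *Pdgfra*, *Kit* and *Pdcl2* were not well above background, *Kdr* was the gene with the large rise given before, and *Srd5a3* rose by 0.24 (adjusted p = 0.0154). *Tmem165* (0.05, adjusted p = 0.572, limma) and *Clock* (0.05, adjusted p = 0.526, with 0.57 on another, called probe) were not called. Under quantile normalization all 8 tested neighbors were called, beside 10821 of 14898 genes in all. *Pdgfra* rose by 2.36, and the tested genes nearest on the 2 sides, *Chic2* and *Kdr*, differed by 1.07 and by a bound of at least 135-fold. Copy number was not measured.

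**Figure D5:**
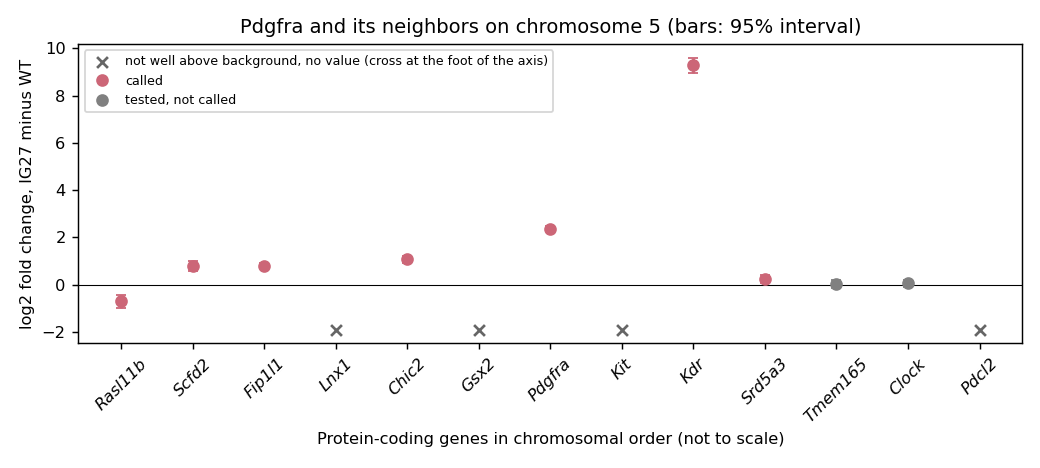
Log2 difference, IG27 minus WT, of *Pdgfra* and the 6 protein-coding genes on each side in chromosomal order (x axis, not to scale), with 95% intervals from limma as bars. Crosses at the foot of the axis mark genes not well above background, which have no value; the value of *Kdr* starts from the background in WT cells.

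Markers of cell types that carry these receptors were read beside the results. Counts of called markers are read against the 30.5% of all genes called as higher and the 40.0% called as lower. The summed linear level of 8 pericyte and smooth muscle markers, relative to the 75th percentile of the array, ran from 104 to 108 on WT arrays and from 66.2 to 68.6 on IG27 arrays, in the direction of *Pdgfrb*. A few bright probes set such a sum: of the 5 markers tested, 2 were higher, *Anpep* by 5.08 and *Des* by 1.06, and 3 were lower, and 2 of 3 *Acta2* probes were called higher against the 1 used. The pericyte markers *Rgs5*, *Kcnj8* and *Abcc9* were well above background in neither line. The sum of 12 oligodendrocyte progenitor markers ran from 108 to 113 in WT and from 101 to 105 in IG27, against the direction of *Pdgfra* (of 10 tested, 4 higher and 5 lower), with *Nkx2-2* and *Pcdh15* in the background in both lines.

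The sum of 6 endothelial markers ran from 0.258 to 0.281 in WT and from 2.82 to 2.91 in IG27 (of 3 tested, 2 higher and 1 lower). *Kdr* is itself on that list and passed the filter only through the IG27 arrays. *Cdh5*, *Cldn5* and *Tek* were well above background in neither line. Fibroblast markers ran from 138 to 142 and from 129 to 136, with *Col1a2* and *Lum* in the background. Of 4 tested, 3 were higher and 1 lower, but *Dcn* and *Fap* passed the filter only through the IG27 arrays. Of those above background in both lines, *Col3a1* was higher and *Col1a1* lower. Microglia markers ran from 12 to 12.5 and from 12.3 to 12.7 (of 4 tested, 3 higher and 1 lower), with *Cx3cr1* and *Ptprc* in the background. Oligodendrocyte markers (48.7 to 58.9 and 30.6 to 32.2, without *Mobp*), astrocyte markers (95.8 to 106 and 55.1 to 63.4, without *Gja1*) and neuron markers (17.6 to 20.0 and 9.97 to 11, without *Rbfox3* and *Syt1*) were lower in sum in IG27 cells. Single markers of these lists went the other way. *S100b* rose by 4.93, and *Mbp* rose by 0.92 on the probe used. Of the 3 *Mbp* probes, 2 were called higher and 1 lower, with a lowest difference of -2.30. *Slc1a3*, in the background on all WT arrays, was at least 20.6-fold higher. *Map2*, well above background on 1 WT array, was at least 180-fold higher on the probe used. The astrocyte sum rested mostly on 1 bright *Gfap* probe, which differed by -1.07, while the other *Gfap* probe was called higher, by 0.19. By list, 1 oligodendrocyte marker was higher (30.5% of all genes) and 2 lower (40.0%) of 5 tested, 2 astrocyte markers higher and 3 lower of 6, and 1 neuron marker higher and 2 lower of 4. Of the markers called as higher, *Gpr17*, *Slc1a3*, *Map2*, *Aif1* and *Des* also passed the filter only through the IG27 arrays. *Stmn2*, called as lower, passed it only through the WT arrays. Nothing is read from these counts. The part of the marker shifts in the PDGF results was not tested.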

How the data were processed

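RNA expression of 3 WT and 3 IG27 samples was measured on Agilent single-color arrays. The authors deposited the intensity of each spot as read by Feature Extraction (version 10.7.3.1 in the file headers, 9.1 in the submitters' processing notes) and a table of the processed signal per probe, an intensity on a linear scale without scaling between arrays. That table equaled the scanner output for all 56305 single-spot probes of each complete array and for the 255 compared on IG27 replicate 2 (relative tolerance 1e-04), with WT replicates 2 and 3 exchanged, where the scanner labels were used.

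From these intensities, the log2 processed signal was computed and the array's own 75th percentile was subtracted. Outlier spots (107 to 210 per complete array) were left out and spots of 1 probe were averaged. Probes were named through RefSeq accessions with a table of GRCm38.p6 (32994 probes, 22911 genes). A probe entered the tests if all complete arrays of WT, of IG27 or of both flagged it as well above background, and the brightest probe of a gene was used. Background correction within Feature Extraction makes ratios of dim probes unsteady, so bounds are given there. limma (version 3.58.1, R 4.3.3) was run as lmFit with eBayes, two-sided and without a block, with Benjamini-Hochberg adjustment over 14898 genes and a threshold of 0.05; the second *Pdgfa* probe was tested in a fit over all probes. The number of arrays limits the precision. The steps were tested on simulated data.

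The members and gene lists were chosen with earlier results of these data known. Named genes were all members with every probe, the 2 largest rises and 2 largest falls of each list among called genes without overlap, the receptors related to PDGF receptors, the neighbors of *Pdgfra*, and for each member the 2 genes of highest r; some genes that this rule names are not reported here. *Fos*, *Egr1*, *Myc*, *H3f3a*, single cell type markers and genes singled out in the closing section were added after their values were seen. For 60 genes of the lists several probes were tested, and for 5 of them calls went both ways (*Acta2*, *Csf1*, *Gfap*, *Mbp* and *Src*). The alternatives, whose effect the closing section gives, were other sources of values, normalizations, background corrections, filters, probe summaries, variance models, blocks and thresholds, and leaving out each array.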

Additional observations from a re-analysis of the deposited data

How the results depend on the processing

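*Pdgfb*, *Pdgfc*, *Pdgfra*, *Pdgfrb* and *Pdgfrl* kept their direction and their call under every alternative that gave a value. There were 19 for *Pdgfb*, *Pdgfra* and *Pdgfrb*, and 18 for *Pdgfc* and *Pdgfrl*, which a filter on both groups leaves out. *Pdgfa* passed the threshold with the mean of its probes (-0.20, adjusted p = 0.0347) and with its other probe (-0.20, adjusted p = 0.0457), and not under the other 18. Adjusted p of *Pdgfa* ran from 0.0347 to 0.6996 over its alternatives, and its difference from -0.36 to -0.06. The difference ran from 1.16 to 1.46 for *Pdgfb*, 1.63 to 4.98 for *Pdgfc*, 2.06 to 2.37 for *Pdgfra*, -1.18 to -1.004 for *Pdgfrb* and 4.52 to 7.16 for *Pdgfrl*. The lowest value of *Pdgfc* and of *Pdgfrl* came with normexp correction, run on median signals and 5 arrays. With each array left out in turn, the ranges were -0.30 to -0.10 (*Pdgfa*), 1.37 to 1.43 (*Pdgfb*), 4.20 to 4.72 (*Pdgfc*), 2.36 to 2.37 (*Pdgfra*), -1.18 to -1.14 (*Pdgfrb*), 6.04 to 7.16 (*Pdgfrl*) and 9799 to 10143 genes called. Counts of genes called in each list stayed within 1.5 times of the reported count; the neighbors of *Pdgfra* ran from 5 to 8 against 6. With no filter for dimness, the median difference over all genes was 0.12 in place of -0.07.

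The replicate numbers showed no clear pairing of the samples. Deviations of same-numbered arrays correlated by 0.01, 0.04 and 0.08, and those of other WT and IG27 pairs by -0.09 to 0.06. These values cannot settle whether samples were paired, since the sources differ in the numbers of WT replicates 2 and 3. A replicate block left the differences as they were (2.36 for *Pdgfra*, adjusted p = 4.46e-05), changed no call among the members and gave 10309 genes called, or 10051 with the numbers of the value table for WT replicates 2 and 3, an alternative chosen after seeing the data. All IG27 arrays and WT replicate 2 lay in 1 row of the slide. With the row as a block, which compares IG27 with WT replicate 2, 8946 genes were called and *Pdgfra* differed by 2.37, *Pdgfrb* by -1.16 and *Pdgfrl* by 5.66. Signal near background limits *Pdgfc* and *Pdgfrl* in WT cells and *Pdgfd* in both lines.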

Other observations

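The oligodendrocyte progenitor markers, among which *Pdgfra* is usually counted, did not move together in these lines. Of 10 tested without *Pdgfra*, 4 were higher and 5 lower in IG27 cells, against 30.5% and 40.0% of all genes, with a median difference of 0.20. *Gpr17*, a receptor gene of committed progenitors, measured -6.39, -6.53 and -6.06 in WT, in the background, and 0.59, 0.59 and 0.49 in IG27, at least 80.1-fold higher. It passed the filter only through the IG27 arrays. *Olig1* and *Olig2*, transcription factor genes of the lineage, rose by 1.48 and 1.51 (adjusted p = 2.03e-06 and 1.38e-05, limma). *Sox10*, the lineage factor gene that was bright in both lines, fell by 0.37 (adjusted p = 7.29e-04). *Ptprz1* fell by 1.78, and *Lhfpl3* fell from 3.04, 2.66 and 2.90 to -2.85, -2.98 and -2.86 (difference -5.76, adjusted p = 1.81e-07).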
